A study of Mus musculus with 8 samples.

Results

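The rod phototransduction cascade is the chain of proteins by which a rod, the photoreceptor of dim light, turns the absorption of light into an electrical signal. It was followed here through 9 genes chosen by name, Gnat1, Gnb1, Gngt1, Pde6a, Pde6b, Pde6g, Cnga1, Cngb1 and Sag, and all 9 were found among the 54532 genes of the deposited tables. Expression was measured by RNA sequencing in 8 libraries of mouse retina. In the first group, 4 libraries carried the label sIVs, which stands in the title of the series for small intracellular vesicles, membrane vesicles taken from inside cells. The other 4, labelled PBS, are described as the control. Both groups use the replicate numbers 1, 3, 4 and 5. The title speaks of delivering drugs and protecting neurons with such vesicles, and the question here is whether levels of cascade transcripts differed with the label. Strain, age, dose, route, timing and any injury are not in the labels. Nothing there ties each library to an animal of its own, so p-values gauge the spread among these 8 samples alone, which may be technical.

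In the dark, cyclic GMP holds the cation channel of the rod outer segment open. Light-activated visual pigment switches on transducin, a G protein built from the alpha subunit of Gnat1, the beta subunit of Gnb1 and the gamma subunit of Gngt1. Transducin then relieves the inhibition that the gamma subunit of Pde6g exerts on the phosphodiesterase, whose catalytic subunits come from Pde6a and Pde6b. The enzyme breaks down cyclic GMP, and the channel formed by the products of Cnga1 and Cngb1 closes. Sag encodes rod arrestin, which binds the activated and phosphorylated pigment and ends its signal. Most of these genes serve rods almost exclusively, whereas Gnb1 is active in many cell types. Gnat1, Pde6 and channel transcripts are also known for their dependence on the rod transcription factors Crx and Nrl.

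Promoter letters are shown for 4 of the genes as a description, and their bearing on the levels was not tested. RefSeq windows (GRCm38.p6, the build also called mm10) were at hand for Gnb1, Gngt1, Pde6b, Cnga1, Cngb1 and Sag, and none was matched for Gnat1, Pde6a and Pde6g. The 250 bases before each start were searched on both strands for TAATCC, the core bound by Crx-type homeodomain factors, and for TGCTGA, part of the element bound by Nrl-type factors. Capitals mark every match, and all windows are written 5′ to 3′ on the strand of the gene. The first 3 belong to genes used mainly by photoreceptors, and Gnb1 stands for contrast. They are chr5:108388123-108388372 on the plus strand for Pde6b, chr8:95306586-95306835 on the minus strand for Cngb1, chr1:87803430-87803679 on the plus strand for Sag and chr4:155491111-155491360 on the plus strand for Gnb1.
Pde6b: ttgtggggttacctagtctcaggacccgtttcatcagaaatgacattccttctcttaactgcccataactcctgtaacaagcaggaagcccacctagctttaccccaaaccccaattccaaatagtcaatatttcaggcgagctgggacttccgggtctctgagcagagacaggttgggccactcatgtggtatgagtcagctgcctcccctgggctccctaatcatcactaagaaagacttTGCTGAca
Cngb1: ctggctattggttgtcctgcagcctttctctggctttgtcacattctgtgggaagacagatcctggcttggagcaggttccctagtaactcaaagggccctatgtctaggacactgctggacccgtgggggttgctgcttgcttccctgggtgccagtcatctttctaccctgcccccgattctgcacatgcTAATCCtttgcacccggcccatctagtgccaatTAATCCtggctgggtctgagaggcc
Sag: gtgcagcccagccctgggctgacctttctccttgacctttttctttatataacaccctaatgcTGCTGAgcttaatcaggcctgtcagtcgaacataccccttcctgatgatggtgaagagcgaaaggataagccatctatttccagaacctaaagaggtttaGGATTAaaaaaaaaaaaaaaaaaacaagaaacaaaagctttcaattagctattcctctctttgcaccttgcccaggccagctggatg
Gnb1: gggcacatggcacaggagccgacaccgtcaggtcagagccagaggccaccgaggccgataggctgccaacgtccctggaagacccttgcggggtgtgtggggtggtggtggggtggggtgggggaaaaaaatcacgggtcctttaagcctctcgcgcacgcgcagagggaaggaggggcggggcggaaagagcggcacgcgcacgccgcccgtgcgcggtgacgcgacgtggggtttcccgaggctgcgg

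TAATCC was found in the windows of Cngb1, at 58 and 25 bases before the start, of Sag at 87 bases, of Gngt1 at 44 bases and of Cnga1 at 228 bases. TGCTGA was found 8 bases before the start of Pde6b and 187 bases before that of Sag. Among all 32851 promoter windows of the same length, 6.3% held TAATCC, 16.1% held TGCTGA and 1.0% held both, as the Sag window does. The Gnb1 window held neither. Its GC content was 69.2%, against a median of 52.4% over all windows and 38.4% to 55.6% in the other 5 members. The 2 motifs did not overlap in any of these windows, and a match describes letters only. The Gngt1 window is not printed, because the RefSeq start at 3994008 lies inside the transcript that GENCODE begins at 3993792.

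The libraries held 13803958 to 16622259 counts each. The 9 genes together took 2.18% ± 0.453 of the reads counted in PBS libraries and 2.43% ± 0.416 in sIVs libraries (SD, n = 4 each), with a range of 1.76% to 2.91% over the 8 libraries. The library labelled sIVs replicate 4 stood apart. In it, genes with coding transcripts under 1 kb lay a median of 1.02 above their own mean over the libraries on the log2 scale (464 genes), and genes with transcripts over 8 kb a median of 0.77 below it, a deviation of -0.77 (676 genes). In the other 7 libraries the medians of these 2 classes lay between -0.30 and 0.07 and between -0.17 and 0.22. The same library held 475 CPM (counts per 1e6 counts of the scaled library) of 9 pigment epithelium markers in sum, against 17.4 to 80.8 CPM in the others. The pigment epithelium borders the photoreceptors, and Rpe65, its retinoid isomerase, stood at 60.2 CPM there and at no more than 4.13 CPM elsewhere. All of the 9 markers but Tyrp1 and Pmel were highest there. Tyrp1 was highest in sIVs replicate 5 (6.46 CPM) and Pmel in PBS replicate 5 (4.21 CPM). Members are therefore given with and without sIVs replicate 4. Whether transcript length or pigment epithelium accounts for its values was not tested.

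The cascade genes were among the abundant transcripts of these libraries. All 9 passed the filter on low counts, and they ranked from 3 (Gnat1) to 238 (Gngt1) by mean CPM among the 17004 genes tested. Levels can be compared between genes only per length. Per kilobase of the longest principal coding transcript in GENCODE M21, the mean over the 8 libraries was 3565 CPM per kb for Gnat1, 2709 for Sag, 1793 for Pde6g, 1217 for Gnb1, 588 for Pde6b, 367 for Gngt1, 287 for Pde6a, 260 for Cnga1 and 121 for Cngb1. The step from Gnb1 to Pde6b (2.07-fold) and from Cnga1 to Cngb1 (2.16-fold) separated neighbours without overlap between libraries. All other neighbours overlapped in range. Pde6g stood above Gnb1 in 8 of 8 libraries all the same, whereas Gngt1 stood above Pde6a in 5 and Pde6a above Cnga1 in 6. The authors' FPKM (fragments per kilobase and 1e6 fragments) rest on a listed gene length, which exceeds the coding transcript for 8 of 9 members and is 8904 against 1719 bases for Sag. On that scale Gnb1 stood next below Gnat1 with 878 FPKM, and Sag stood below Pde6g with 512 against 682 FPKM.

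No member passed the test of a difference between sIVs and PBS retinas. The 95% intervals of the 9 log2 differences together reached from -1.01 (Pde6a) to 1.26 (Pde6g), so these libraries leave room for differences of either sign. Of the 9 genes, 0 passed edgeR's quasi-likelihood test at an adjusted p under 0.05, as did 0 of all 17004 genes (0%). At an unadjusted p under 0.05 there were 0 members and 255 genes (1.5%). The groups overlapped for all 9, while they did not overlap for 2.01% of all genes (1.08% with the sIVs group higher). The log2 difference was positive for 8 of 9 members, with a median of 0.17, and for 51.3% of all genes, with a median of 0.01. Without sIVs replicate 4 it was positive for 9 of 9, with a median of 0.10, beside 50.3% of all genes. Without sIVs replicate 1 it was positive for 5 of 9, with a median of 0.01, and without PBS replicate 3 or 5 for 6 of 9, with medians of 0.04 and 0.08. Without PBS replicate 1 it was positive for 9 of 9, with a median of 0.31, and without sIVs replicate 5 for 8 of 9, with a median of 0.26. Members moved together across libraries, so these counts do not rest on 9 separate observations. In bulk tissue, fewer rods and less RNA per rod cannot be told apart.

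**Figure D1:**
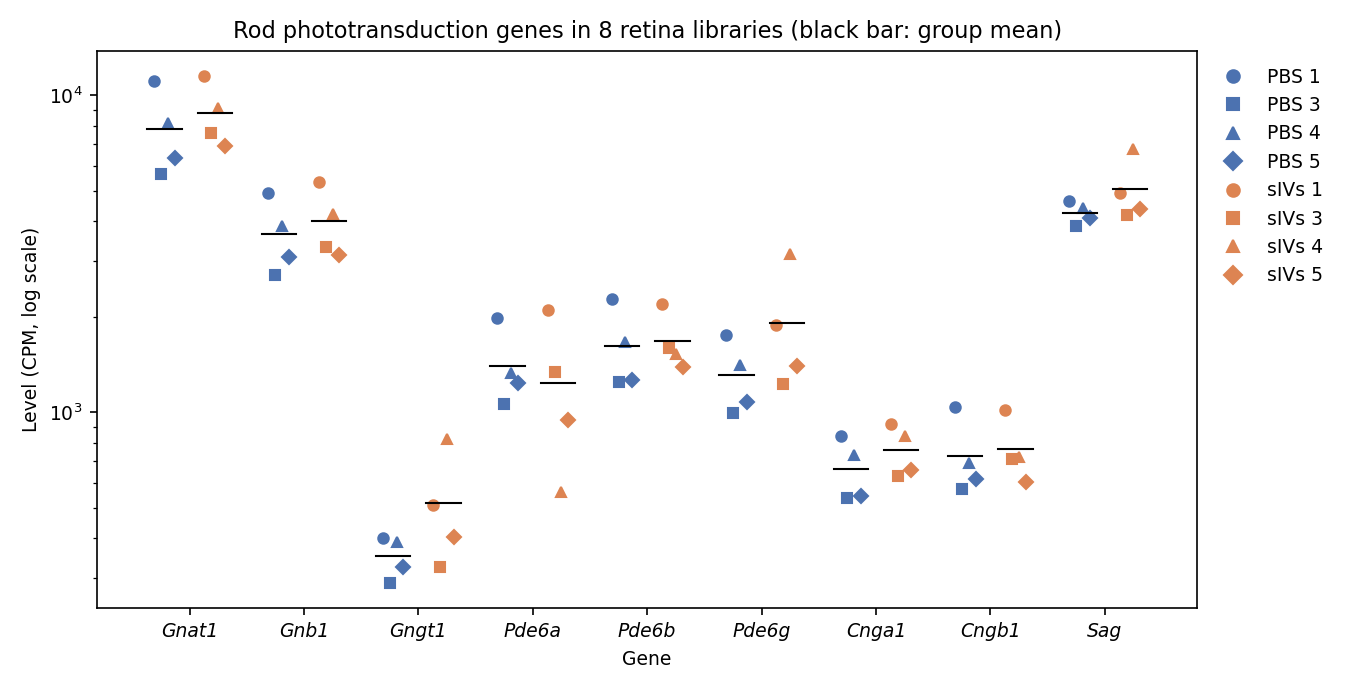
Level of each cascade gene in each of the 8 libraries, in CPM on a log axis, with PBS libraries in blue, sIVs libraries in orange, a marker shape for each replicate number and a black bar at the mean of the 4 libraries of a group. The groups overlap for every gene, and sIVs replicate 4 is the highest library for Gngt1, Pde6g and Sag and the lowest for Pde6a.

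Of the transducin genes, Gnat1 (ENSMUSG00000034837, chromosome 9, 107674474 to 107679712, minus strand, mm10) stood at 11068, 5643, 8186 and 6339 CPM in PBS replicates 1, 3, 4 and 5, and at 11493, 7623, 9129 and 6906 CPM in sIVs replicates 1, 3, 4 and 5. Replicate 1 was the highest library of both groups, so that the difference between libraries of a group was larger than that between the groups. The log2 difference was 0.17 ± 0.26 (SE; 95% confidence interval -0.41 to 0.75; edgeR adjusted p = 0.844). Gnb1 (ENSMUSG00000029064, chromosome 4, 155491361 to 155559269, plus strand) followed the same order of libraries. It stood at 4934, 2716, 3867 and 3093 CPM in the PBS and at 5322, 3321, 4206 and 3141 CPM in the sIVs libraries. Its log2 difference was 0.13 ± 0.24 (SE; interval -0.41 to 0.67; edgeR adjusted p = 0.868). Gnat1 and Gnb1 were thus highest in sIVs replicate 1, next in PBS replicate 1 and lowest in PBS replicate 3.

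Gngt1 (ENSMUSG00000029663, chromosome 6, 3993792 to 3997436, plus strand) departed from the other transducin subunits. It stood at 402, 290, 389 and 325 CPM in PBS replicates 1, 3, 4 and 5 and at 512, 324, 825 and 404 CPM in the sIVs libraries. Replicates 1, 4 and 5 of the sIVs group lay above every PBS library, and replicate 3 lay among them. The log2 difference was 0.55 ± 0.27 (SE; interval -0.05 to 1.16; edgeR adjusted p = 0.81). Leaving out sIVs replicate 4 gave 0.23 ± 0.17 (interval -0.15 to 0.61). The coding transcript of Gngt1 has 1183 bases, against 2328 for Gnat1 and 3143 for Gnb1. In sIVs replicate 4 Gngt1 stood at 2.18 times the mean of the other 7 libraries, while Gnat1 and Gnb1 each stood at 1.12 times theirs.

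The catalytic subunits of the phosphodiesterase parted mainly in sIVs replicate 4. Pearson's r of their log2 CPM was 0.92 without that library and 0.67 with it. Pde6b (ENSMUSG00000029491, chromosome 5, 108388391 to 108432397, plus strand) stood at 2283, 1247, 1660 and 1266 CPM in the PBS and at 2199, 1598, 1524 and 1391 CPM in the sIVs libraries. Replicate 1 was again highest in both groups, and the log2 difference was 0.06 ± 0.23 (SE; interval -0.47 to 0.58; edgeR adjusted p = 0.941). Pde6a (ENSMUSG00000024575, chromosome 18, 61220482 to 61289924, plus strand) stood at 1980, 1060, 1333 and 1233 CPM in the PBS libraries. In the sIVs libraries it stood at 2096, 1339, 561 and 943 CPM. Replicates 4 and 5 of the sIVs group thus lay below all PBS libraries and replicate 1 above all of them. Pde6a was the only member with a negative log2 difference, -0.18 ± 0.37 (SE; interval -1.01 to 0.65; edgeR adjusted p = 0.878). Without sIVs replicate 4 the value was 0.06 ± 0.29.

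A pseudogene on the opposite strand, Rps2-ps10, overlaps Pde6a. It held 1379 to 2564 counts in the PBS libraries and 1446, 1535, 3402 and 2128 in sIVs replicates 1, 3, 4 and 5. That was 5.26% to 14% of the Pde6a count in the PBS libraries, 39.7% in sIVs replicate 4 and 15.5% in sIVs replicate 5, the libraries where Pde6a was lowest. Whether strand entered the counting is not given in these sources, so reads of the pair may be split between them, and the level of Pde6a is uncertain to that extent. The overlapping genes of Cnga1 (Gm5297) and Gnb1 (Gm13171) held on average 0.262% and 0.01% of the member's counts.

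Pde6g (ENSMUSG00000025386, chromosome 11, 120447605 to 120453500, minus strand), the inhibitory subunit, was highest in sIVs replicate 4, like Gngt1. It stood at 1755, 995, 1414 and 1074 CPM in the PBS and at 1881, 1227, 3165 and 1400 CPM in the sIVs libraries. Replicate 3 was the lowest sIVs library. Replicates 3 and 5 of the sIVs group lay inside the PBS range, and replicates 1 and 4 lay above it. The log2 difference was 0.55 ± 0.31 (SE; interval -0.15 to 1.26; edgeR adjusted p = 0.81). Leaving out sIVs replicate 4 gave 0.20 ± 0.22. Its coding transcript, at 900 bases, is the shortest of the 9.

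The channel subunits differed by less than their spread. Cnga1 (ENSMUSG00000067220, chromosome 5, 72603696 to 72644275, minus strand), which forms the cyclic GMP-gated pore, stood at 840, 535, 734 and 544 CPM in the PBS and at 918, 631, 841 and 657 CPM in the sIVs libraries. In each group replicate 1 was highest, and the groups overlapped. The log2 difference was 0.20 ± 0.19 (SE; interval -0.23 to 0.63; edgeR adjusted p = 0.81). Cngb1 (ENSMUSG00000031789, chromosome 8, 95239045 to 95306585, minus strand), the modulatory subunit, stood at 1041, 573, 690 and 614 CPM and at 1016, 711, 723 and 604 CPM. PBS replicate 1 and sIVs replicate 1 were the highest 2 libraries, and the log2 difference was 0.07 ± 0.23 (SE; interval -0.44 to 0.57; edgeR adjusted p = 0.93). The gene also makes short transcripts for glutamic acid-rich proteins. GENCODE M21 lists coding transcripts of 1512 to 6189 bases, and the counts do not separate them.

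Sag (ENSMUSG00000056055, chromosome 1, 87803680 to 87845158, plus strand) varied least among the PBS libraries, at 4634, 3879, 4394 and 4102 CPM. It stood at 4928, 4176, 6770 and 4374 CPM in the sIVs libraries, so that replicate 4 lay above all others and replicates 3 and 5 lay inside the PBS range. The log2 difference was 0.25 ± 0.19 (SE; interval -0.17 to 0.67; edgeR adjusted p = 0.81). Leaving out sIVs replicate 4 gave 0.08 ± 0.14. Over the other 7 libraries the highest level of Sag was 1.27 times the lowest. For the other 8 members that factor was 1.72 (Cnga1) to 2.22 (Pde6a).

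**Figure D2:**
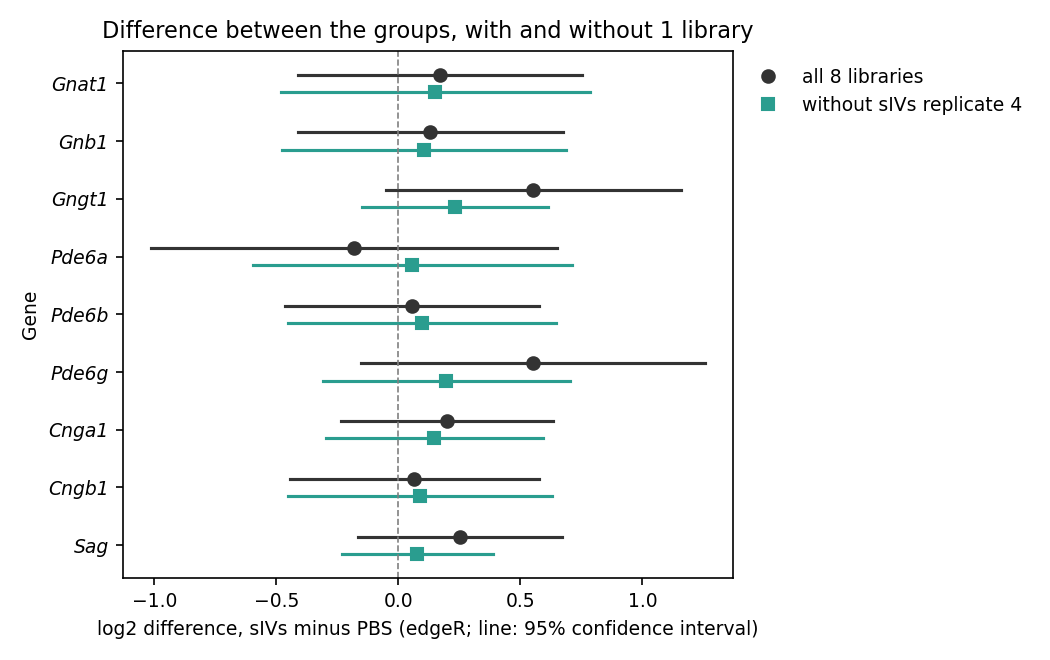
Difference between the groups for each cascade gene, as log2 of sIVs over PBS from edgeR's fit to all genes, with its 95% confidence interval, for all 8 libraries (black) and without sIVs replicate 4 (green). All 18 intervals include 0, and without that library the values of Gngt1, Pde6g and Sag lie nearer to 0 while that of Pde6a changes sign.

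The transcripts of most members went up and down together across the libraries, whichever the group. PBS replicate 3 was the lowest library for 8 of 9 members, all but Pde6a. sIVs replicate 1 was among the highest 2 libraries for 9 of 9, and PBS replicate 1 among the highest 3 for 8 of 9, all but Gngt1. Over the 7 libraries without sIVs replicate 4, Pearson's r of log2 CPM between members ranged from 0.63 to 0.99 over the 36 pairs, with a median of 0.93. Over all 8 libraries the lowest r was -0.46, for Pde6a with Sag, and the median was 0.69. These correlations are descriptions over few libraries that share groups and scaling. Gnat1, Gnb1, Pde6b, Cnga1 and Cngb1 had pairwise r of 0.84 to 0.99 with all 8 libraries. They are the members that deviated least in sIVs replicate 4, so this follows largely from the choice of genes. Sums of related rod lists were also high in both replicates 1 and low, though not always lowest, in PBS replicate 3. The 8 outer segment genes summed to 14114 and 14293 CPM in PBS and sIVs replicate 1 and to 8178 CPM in PBS replicate 3, and the 10 recovery genes to 11452 and 11209 against 7009 CPM. The 7 rod transcription factor genes summed to 5841 and 5900 against 3649 CPM. The recovery sum was lowest in sIVs replicate 5 (6846 CPM) and the transcription factor sum in PBS replicate 5 (3561 CPM).

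Transcripts of gliosis, the response of retinal glia to stress, were low in both libraries with the highest cascade sums. Gfap, Edn2, Lcn2 and 6 of the other listed genes (Serpina3n, Fgf2, Stat3, Socs3, Osmr and Cebpd) were each lowest in PBS replicate 1, and the 10 gliosis genes summed to 183 CPM there and 368 CPM in sIVs replicate 1. The cascade genes summed to 28937 and 30365 CPM in those libraries, more than in any other. In PBS replicate 3 the gliosis sum was 889 CPM and the cascade sum 16938 CPM, the lowest of all. PBS replicates 4 and 5 and sIVs replicates 3 and 5 lay between, at 572 to 792 CPM for gliosis and 18590 to 22669 CPM for the cascade. sIVs replicate 4 did not follow this order, with 1045 CPM of gliosis genes and 27744 CPM of cascade genes. The part of gliosis, or of the share of rods in each sample, in the cascade levels was not tested.

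**Figure D3:**
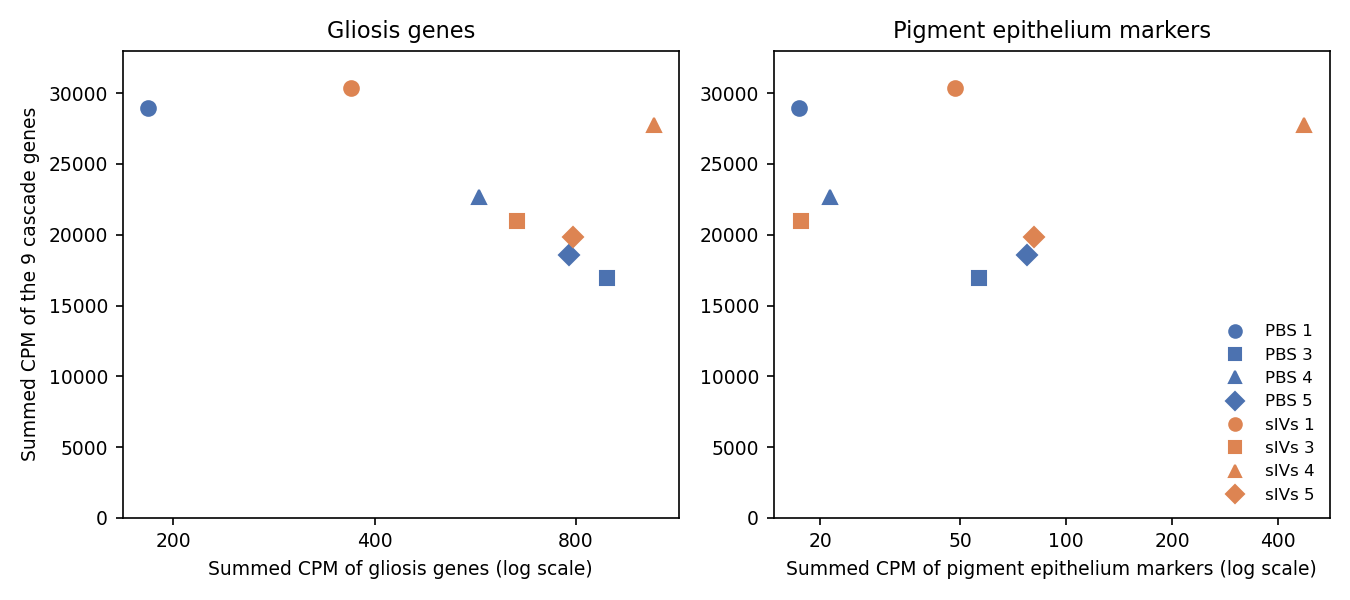
Summed CPM of the 9 cascade genes (vertical, from 0) against the summed CPM of 10 gliosis genes (left) and of 9 pigment epithelium markers (right), both on log axes, 1 point for each library. Apart from sIVs replicate 4, libraries with a gliosis sum of 183 or 368 CPM have the highest cascade sums and the library at 889 CPM the lowest, and sIVs replicate 4 stands alone in the right panel at 475 CPM.

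In sIVs replicate 4 the deviations of the cascade genes were ordered by transcript length, with exceptions. Pde6g (900 bases), Gngt1 (1183) and Sag (1719) lay 1.07, 1.00 and 0.56 above their means over the 8 libraries on the log2 scale. Gnat1, Cnga1, Pde6b and Gnb1, with transcripts of 2328 to 3143 bases, lay between -0.08 and 0.26. The median of all genes was 1.02 for transcripts under 1 kb, 0.63 for 1 to 2 kb, 0.11 for 2 to 4 kb and -0.36 for 4 to 8 kb. Pde6a, at 4588 bases, lay at -1.13, which is 0.77 below the median of its class, a difference of -0.77. Cngb1, with the longest coding transcript at 6189 bases, lay at -0.01, or 0.35 above that same median. In sIVs replicate 1, by contrast, all 9 members lay above their means, by 0.10 (Sag) to 0.77 (Pde6a), while the class medians of all genes lay between -0.15 and 0.17.

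**Figure D4:**
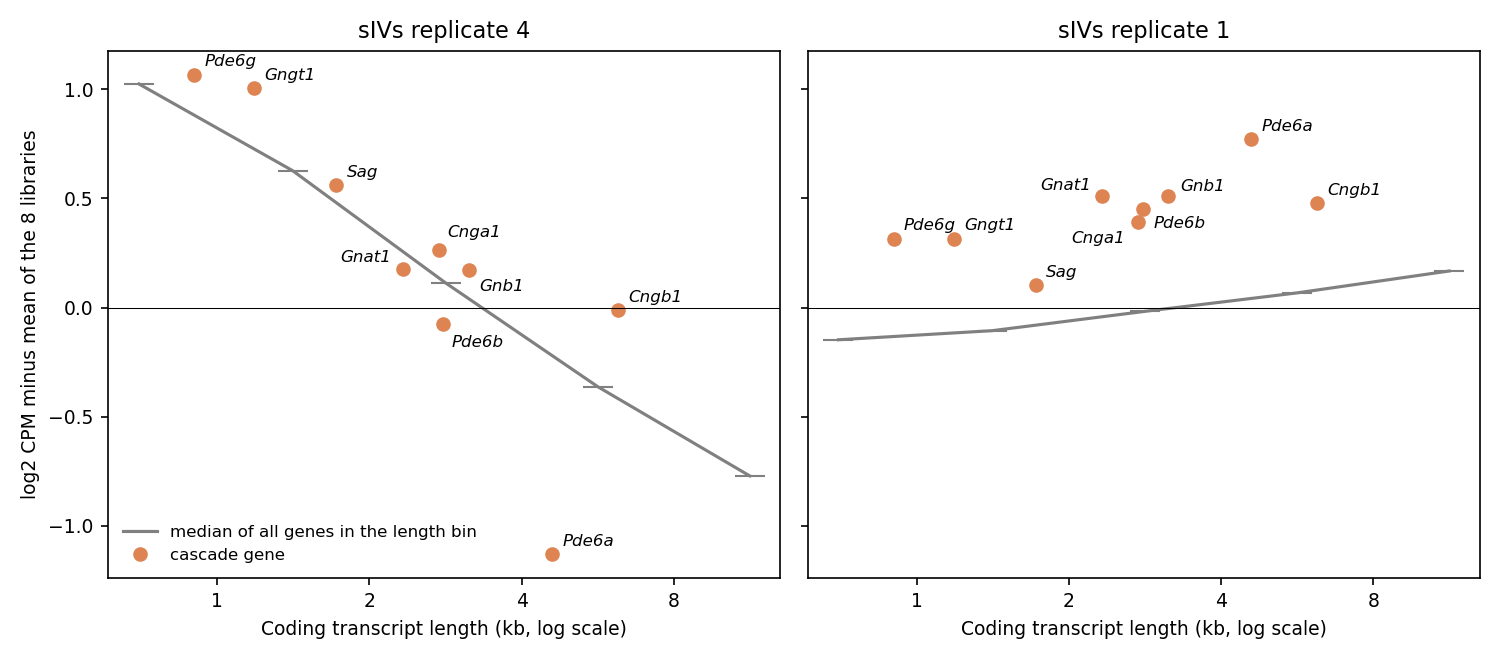
Deviation of each cascade gene (orange) from its mean over the 8 libraries, in log2 CPM, against the length of its coding transcript (kb, log axis), in sIVs replicate 4 (left) and sIVs replicate 1 (right). The grey line joins the medians of all genes of at least 10 CPM in 5 length classes, the first and last classes being open-ended, and it runs from 1.02 to -0.77 in replicate 4 and from -0.15 to 0.17 in replicate 1.

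Ratios between subunit transcripts of a complex do not depend on the scaling of a library. In PBS libraries the level of Gnb1 was 0.35 ± 0.0137 times that of Gnat1 per kilobase of coding transcript (SD, n = 4), and 0.336 ± 0.0092 times in sIVs libraries. This was the tightest of the 5 ratios examined. Gngt1 stood at 0.0918 ± 0.014 and 0.116 ± 0.0435 times Gnat1, Pde6g at 2.54 ± 0.126 and 3.66 ± 1.89 times Pde6b, and Pde6a at 0.533 ± 0.0441 and 0.433 ± 0.155 times Pde6b (SD, n = 4 each). Cngb1 stood at 0.484 ± 0.055 and 0.444 ± 0.0591 times Cnga1. In sIVs replicate 4 the ratio of Pde6g to Pde6b was 6.46 and that of Pde6a to Pde6b 0.225, against 2.39 to 3.13 and 0.414 to 0.594 in the other 7 libraries. None of the 5 group differences in the log2 ratio of FPKM passed (two-sided exact permutation p = 0.371, 0.171, 0.229, 0.257 and 0.343 in the order Gngt1 to Gnat1, Gnb1 to Gnat1, Pde6g to Pde6b, Pde6a to Pde6b and Cngb1 to Cnga1; adjusted p = 0.371 for each). The smallest exact p that 4 against 4 libraries allow is 0.0286, which gives 1 ratio alone an adjusted p of 0.143, so no single ratio could have passed after adjustment unless at least 3 reached that p. Without sIVs replicate 4 the group difference was 0.09 in place of 0.41 for Pde6g to Pde6b, -0.10 in place of -0.38 for Pde6a to Pde6b, 0.06 in place of 0.28 for Gngt1 to Gnat1 and -0.06 in place of -0.13 for Cngb1 to Cnga1.

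**Figure D5:**
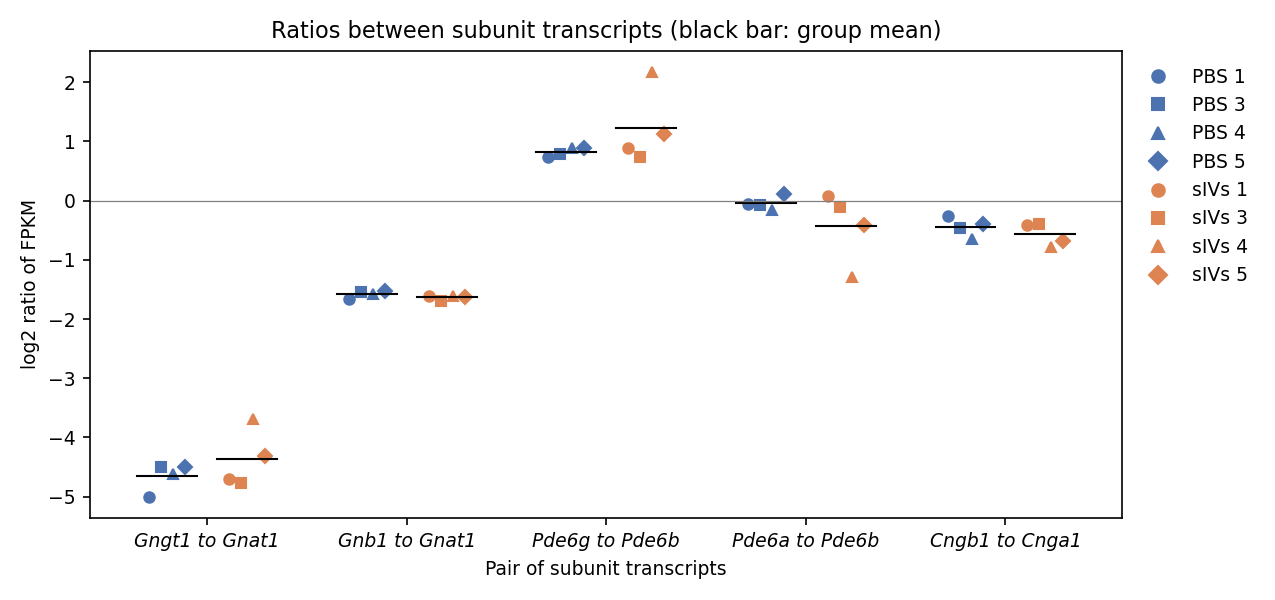
Log2 ratio of FPKM between pairs of subunit transcripts in each library, with PBS in blue, sIVs in orange and black bars at group means of 4 libraries. The ratio of Gnb1 to Gnat1 varies least, between -1.69 and -1.53, and sIVs replicate 4 lies highest for Gngt1 to Gnat1 and Pde6g to Pde6b and lowest for Pde6a to Pde6b and Cngb1 to Cnga1.

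The genes around the cascade were read from lists. No gene of them passed the test (edgeR's quasi-likelihood test over all genes). Of 10 genes of response recovery and calcium feedback, 0 passed upward and 0 downward, 4 had a positive and 6 a negative log2 difference, and the median was -0.15. Guca1a, which activates guanylate cyclase when calcium falls, and Rcvrn, the calcium sensor recoverin, came first by p with differences of 0.48 ± 0.27 and 0.39 ± 0.24 (SE; edgeR adjusted p = 0.81 for both). In sIVs replicate 4 the list split further than the cascade did. Rgs9, the regulator that makes transducin hydrolyse its GTP and that was named after its values were seen, stood at 21.7 CPM there and at 162 CPM in sIVs replicate 5. In the other 6 libraries it stood at 391 to 612 CPM. Without sIVs replicate 4 the median of the list was 0.02, and without PBS replicate 1 it was 0.07.

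Of 8 genes that fold or carry cascade proteins, 0 passed, 7 had a positive log2 difference and the median was 0.21, or 0.08 without sIVs replicate 4. Pde6d, a carrier of prenylated proteins such as the phosphodiesterase, and Arl3, the GTPase that releases such cargo, had log2 differences of 0.45 ± 0.23 and 0.39 ± 0.24 (SE; edgeR adjusted p = 0.81). The 7 rod transcription factor genes had a median of 0.10, with 0 passing and 6 positive, and of -0.05 with 3 positive when sIVs replicate 1 was left out. Among them Nrl, which specifies rods, had a log2 difference of 0.27 ± 0.29 and Otx2, which acts upstream of Crx, one of 0.12 ± 0.10 (SE). The 8 outer segment genes had a median of -0.06, with 0 passing, 3 positive and 5 negative. Rom1 and Prph2, which shape the disc rim, had log2 differences of 0.33 ± 0.26 and 0.23 ± 0.25 (SE), and without sIVs replicate 4 all 8 were positive with a median of 0.06. That median was also positive without PBS replicate 1 (0.12) and without sIVs replicate 5 (0.03).

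Cone counterparts of the members varied from gene to gene. Gnat2, the cone transducin alpha gene, stood at 163 CPM in PBS replicate 1 and at 125 CPM in PBS replicate 3, its lowest library, as it was for 8 of the 9 rod genes. Arr3, cone arrestin, was highest in PBS replicate 1, at 117 CPM, and stood at 90.8 CPM in PBS replicate 3. Gnb3, a transducin beta gene also active in bipolar cells, went the other way, from 356 CPM in PBS replicate 1, its lowest library, to 761 CPM in PBS replicate 3. Lower in PBS replicate 1 than in PBS replicate 3 were also Gngt2 (13.4 against 18.0 CPM) and Pde6c (36.7 against 42.9 CPM). So were Pde6h (86.1 against 88.3 CPM) and Cnga3 (12.2 against 13.3 CPM). Cngb3 went the way of Gnat2, at 15.0 against 13.5 CPM. Gnb3 was the largest part of the list's sum, which was 800 CPM in PBS replicate 1 and 1153 CPM in PBS replicate 3. Between the groups 0 of 8 passed, 5 were positive, and the median log2 difference was 0.14, or 0.06 without sIVs replicate 4. Pde6h, the inhibitory subunit of the cone enzyme, and Gngt2, the cone transducin gamma gene, had log2 differences of 0.51 ± 0.28 and 0.60 ± 0.34 (SE; edgeR adjusted p = 0.81). Like their rod counterparts Pde6g and Gngt1, both were highest in sIVs replicate 4. Pde6h stood at 227 CPM there, with 86.1 to 114 CPM elsewhere, and Gngt2 stood at 48.7 CPM.

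Markers of other cell types were read in the same way, and 0 of them passed. The 10 microglia markers all had a positive log2 difference, beside 51.3% of all genes, with a median of 0.55. Without sIVs replicate 4, 9 were positive with a median of 0.27. Without PBS replicate 1 or sIVs replicate 5, 8 were positive, with medians of 0.29 and 0.46. Groups did not overlap for 1 of the 10, P2ry12, which was higher in sIVs libraries (edgeR adjusted p = 0.81), as for 1.08% of all genes. The microglia sum ran from 60.9 CPM (PBS replicate 1) to 263 CPM in the PBS and from 165 to 359 CPM in the sIVs libraries. Of 9 pigment epithelium markers 8 were positive, with a median of 1.17, against 5 and 0.02 without sIVs replicate 4. The medians were 0.03 for 7 Müller glia, 0.01 for 7 bipolar cell and 0.05 for 7 ganglion cell markers. The 10 gliosis genes had a median of -0.00202, with 5 positive. That median was -0.26 without PBS replicate 1, and 0.17, 0.16 and 0.15 without PBS replicate 3, PBS replicate 5 and sIVs replicate 1. What these cells contribute to the cascade values was not tested.

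For each member, the protein-coding genes of at least 10 CPM most like it over the 8 libraries were taken by Pearson's r of log2 CPM, as a description of likeness. Gnat1 was closest to Tdrd7, Gpsm2 and Elovl4 (r = 0.99 for each), of which Elovl4 elongates very long chain fatty acids of photoreceptors. Gnb1 was closest to Cplx4, Tmem266 and Impdh1 (0.98 to 0.99), the last being the enzyme that feeds GTP synthesis. Pde6b was closest to Tmlhe, Reep6 and Aqp1, Cngb1 to Reep6, Rabgef1 and Ap2a2, and Cnga1 to Hsdl1, Ccdc126 and Cdr2 (0.98 to 1.00). Pde6a was closest to Impg1, a gene of the matrix around photoreceptors, and to Jak1 and Dnal1 (0.996 to 0.997). These 3 genes stood at 0.457, 0.827 and 0.661 times their mean of the other 7 libraries in sIVs replicate 4, where Pde6a stood at 0.393 times. Pde6g was closest to Unc119, a carrier of transducin alpha, and to Rd3 and Faim (0.99 to 1.00). Gngt1 was closest to Platr17, Eri3 and Tma7, and Sag to Cpsf3, Slc25a33 and Got2 (0.99 for each). The 6 genes closest to Pde6g and Gngt1 all lay above their mean of the other libraries in sIVs replicate 4, by factors of 1.45 to 2.25. Because the like genes were picked by r over all 8 libraries, their values in sIVs replicate 4 follow largely from that choice. This holds for the genes closest to Pde6a as well. Without sIVs replicate 4, r of the 6 genes closest to Pde6g and Gngt1 with their member was 0.970 to 0.996. For the genes closest to Sag it was 0.942 to 0.963. The other 7 libraries also entered the choice, so a high r in them follows partly from it.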

How the data were processed

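RNA was measured in 8 mouse retina libraries as 150 bp read pairs from poly(A) RNA with dUTP strand marking, per the labels. Raw gene counts and FPKM were deposited by the authors. Dividing the counts by listed length and library size returned the FPKM up to a factor of 0.943 to 1.03 in each library. The submitters' processing notes name mm10. Neither aligner nor counter, nor whether counting used strand, is given in the sources used here.

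Groups and replicate numbers came from sample titles. The 17004 genes kept by filterByExpr were scaled with TMM. All 8 libraries entered edgeR 4.0.16 under R 4.3.3, where group was the sole term of a two-sided quasi-likelihood test, with Benjamini-Hochberg adjustment at 0.05. Standard errors are the absolute log2 difference divided by the square root of F, so they and the intervals are approximate. Ratios were compared by exact permutation over 70 arrangements (scipy 1.17.1). CPM are counts per 1e6 counts of the scaled library. Likeness and length deviations used log2 CPM with a prior count of 2 and genes of at least 10 CPM. Transcript lengths came from GENCODE M21 (GRCm38), promoter letters from RefSeq. The tests were checked on simulated data.

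Depth was 13803958 to 16622259 counts, and the common biological coefficient of variation of 0.254 limited precision. Alternatives were DESeq2 1.42.0, limma 3.58.1 (voom with quality weights, and log2 FPKM with pseudocounts of 1 and 0.1), other scaling, no filter, a replicate block, each library left out and, added after seeing the data, offsets for transcript length and the omission of both replicates 1. The text names all members, the 2 genes of smallest p in each list, the 3 genes most like each member and the first marker of a list, and says where a gene was chosen after its values were seen. Members and lists were chosen with earlier results of these data known.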

Additional observations from a re-analysis of the deposited data

Results flagged for a closer look

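Of 64 groups of 4 values checked for a sample far from the others, 2 exceeded Dixon's 95% critical value of 0.829, and chance would flag about 1 in 20 groups. Both concern sIVs replicate 4 and no cascade gene. The pigment epithelium markers summed to 475 CPM in that library (gap over range 0.862), against at most 80.8 CPM in the other sIVs libraries. The ganglion cell markers summed to 927 CPM there (gap over range 0.836), against 667 to 710 CPM in the other sIVs libraries. Not every marker went this way. Among the sIVs libraries, Rbpms, Pou4f2, Nefl, Sncg and Thy1 were highest in sIVs replicate 4. Nefm was lowest there (83.7 CPM), and Pou4f1 (42.9 CPM) lay within the range of the others.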

How the results depend on the processing

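Under each of 19 alternatives, 0 of the 9 cascade genes and 0 of all genes passed, with 136 to 958 genes at an unadjusted p under 0.05 and a lowest adjusted p of 0.104, by DESeq2. Unadjusted, Gngt1 went below 0.05 with no filter on low counts, and Gngt1 and Pde6g did so without sIVs replicate 3 and with the replicate block, where their log2 differences were 0.47 and 0.48 (edgeR adjusted p = 0.655). Gnat1, Gngt1, Pde6g, Cnga1 and Sag kept a positive log2 difference in all 19. With libraries left out in turn, Pde6a ranged from -0.57 to 0.057, Pde6b from -0.10 to 0.27, Cngb1 from -0.11 to 0.28 and Gnb1 from -0.041 to 0.31. Pde6a also changed sign with limma-voom quality weights (0.15; the cause was not tested), which gave sIVs replicate 4 a weight of 0.0913, the lowest. With offsets for transcript length, Gngt1, Pde6g, Sag and Gnat1 had log2 differences of 0.26, 0.21, 0.07 and 0.09 and Cngb1 stood at 0.24 in place of 0.07. No other direction changed, and the 5 subunit ratios kept their sign, though not their size, in all alternatives run on them. Replicate numbers were not treated as pairs. Deviations of same-numbered libraries from their group means correlated at 0.67, 0.05, 0.41 and 0.66 across genes for numbers 1, 3, 4 and 5, and PBS replicate 3 correlated best with sIVs replicate 5. sIVs was higher at all 4 numbers for 6 of 9 members (Gnat1, Gnb1, Gngt1, Pde6g, Cnga1 and Sag) and for 8.79% of all genes. The members share much of 1 pattern across libraries (median pairwise r 0.69 over all 8), so they are not 9 separate observations. With the replicate block 0 genes passed (588 unadjusted, against 255 without it). Depth did not limit the members, each of which had at least 4562 counts in every library; the spread between libraries did.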
